A study of Homo sapiens with 9 samples.

Results

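The genes described here are the ABC transporters of subfamilies A, B, C, D and G. The family was chosen with earlier results of these data known. Its members were taken by symbol alone, as every gene whose symbol is ABCA, ABCB, ABCC, ABCD or ABCG followed by a number and nothing else. The rule found 42 genes among the 52402 gene symbols of the count table, 12 in subfamily A, 9 in B, 12 in C, 4 in D and 5 in G. Their RNA was measured by poly(A)-selected sequencing in HaCaT cells, a spontaneously immortalised line of human skin keratinocytes, kept in serum-containing DMEM. The groups were cells in medium alone (control), cells given fragmented polystyrene (fPS), a plastic in small particles, at 25 µg/ml (fPS 25), and cells given fPS at 100 µg/ml (fPS 100), each for 24 h with 3 libraries. All groups are the same cell line. Whether replicates came from separate cultures is not stated in the labels, and p-values therefore speak to the spread among these libraries alone, which may be technical.

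ABC transporters are membrane proteins that use ATP to move substrates across a bilayer. Members of subfamilies B, C and G include the pumps that carry drugs and conjugated metabolites out of cells. Subfamily A and part of G move lipids and sterols, several of subfamily B sit in mitochondria or lysosomes, and subfamily D carries fatty acyl-CoA into peroxisomes or cobalamin out of lysosomes. In the epidermis the family is best known for ABCA12, which loads lipids into the lamellar granules of keratinocytes and whose loss causes harlequin ichthyosis.

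Total counts ran from 22.0M to 25.4M in the control, 16.4M to 23.4M in the fPS 25 and 25.0M to 29.3M in the fPS 100 libraries. All 12 keratinocyte marker genes passed the filter on low counts, with summed levels of 6643 to 6956 CPM (counts scaled to a common library depth) in control, 6075 to 6332 in fPS 25 and 6964 to 9555 in fPS 100. The highest of these sums was set by SFN, at 5078 CPM in fPS 100 replicate 3, while KRT5 fell in fPS 100 against control (log2 fold change -0.62 ± 0.10, adjusted p = 0.00122). Of the markers of other cells, 7 of 8 fibroblast, 5 of 7 melanocyte, 7 of 9 immune and 4 of 6 endothelial genes stayed under 1 CPM, PTPRC among them. The summed immune markers were at 18.8 to 21.1 CPM in fPS 100 and 10.2 to 11.6 CPM in control, and the summed endothelial markers at 2.42 to 8.38 CPM in fPS 100 and 1.30 to 2.27 CPM in control. The immune sum was mostly CD68, at 17.9 to 19.5 CPM in fPS 100 and 7.75 to 9.20 CPM in control, while ITGAM fell in fPS 100 against control (log2 fold change -1.44, adjusted p = 0.0452) and CD14 was at -1.22 (adjusted p = 0.103). The endothelial sum was mostly CDH5 in fPS 100 replicate 3, at 7.43 CPM. The part of these markers in the ABC results was not tested. Ribosomal RNA genes took 6.06% to 8.48% of counts in the fPS 100 libraries and 0% in all others. A difference in how the libraries were made or their reads filtered would coincide with the fPS 100 group. It cannot be told apart from the dose there. Without these genes the ABC calls numbered the same, which does not bear on such a difference. Replicate 3 of fPS 100 stood apart on the second principal component, at 35.2 against -19.0 and -9.91 for replicates 1 and 2 of that group.

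Promoter sequences, from 250 bases before to 50 bases after 1 start per gene, were matched in RefSeq (GRCh38.p14) for 31 of the 42 genes. Those without one included ABCA4, ABCA8, ABCB4, ABCB5, ABCC1, ABCC3, ABCC8, ABCC13 and ABCG1. In ABCA9, ABCB9, ABCC10, ABCD3 and ABCG5 the start used lies inside the annotated interval of the gene. Other starts of a gene were not examined. The windows shown are those of the 6 genes with a promoter whose calls in fPS 100 against control held under every alternative processing tried: ABCA3, ABCA5, ABCB10, ABCC5 and ABCG2, which rose, and ABCB6, which fell. All lie on the minus strand, ABCA3 at chr16:2340679-2340978, ABCA5 at chr17:69327084-69327383, ABCB10 at chr1:229558658-229558957, ABCC5 at chr3:184017835-184018134, ABCG2 at chr4:88231577-88231876 and ABCB6 at chr2:219218909-219219208. Capitals mark matches, on either strand, to GCGTG, the core bound by the aryl hydrocarbon receptor, to TGACNNNGC, the antioxidant response element, or to CACGTG, the E-box.
ABCA3: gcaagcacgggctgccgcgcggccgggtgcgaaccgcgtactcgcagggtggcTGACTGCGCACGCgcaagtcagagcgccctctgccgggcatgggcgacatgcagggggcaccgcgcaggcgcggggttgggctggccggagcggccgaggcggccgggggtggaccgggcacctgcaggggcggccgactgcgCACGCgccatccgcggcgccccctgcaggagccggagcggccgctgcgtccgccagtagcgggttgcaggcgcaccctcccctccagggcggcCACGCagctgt
ABCA5: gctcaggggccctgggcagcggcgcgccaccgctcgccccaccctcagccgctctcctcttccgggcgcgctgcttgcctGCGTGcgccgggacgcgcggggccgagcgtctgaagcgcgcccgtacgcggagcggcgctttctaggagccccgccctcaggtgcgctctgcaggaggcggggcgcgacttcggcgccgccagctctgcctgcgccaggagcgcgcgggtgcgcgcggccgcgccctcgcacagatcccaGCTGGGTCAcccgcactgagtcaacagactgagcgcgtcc
ABCB10: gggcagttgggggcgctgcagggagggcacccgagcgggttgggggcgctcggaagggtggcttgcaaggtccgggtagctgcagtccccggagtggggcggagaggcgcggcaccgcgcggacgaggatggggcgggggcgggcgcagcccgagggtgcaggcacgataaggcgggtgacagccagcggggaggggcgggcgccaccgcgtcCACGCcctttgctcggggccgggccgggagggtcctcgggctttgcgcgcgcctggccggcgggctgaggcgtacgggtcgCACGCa
ABCC5: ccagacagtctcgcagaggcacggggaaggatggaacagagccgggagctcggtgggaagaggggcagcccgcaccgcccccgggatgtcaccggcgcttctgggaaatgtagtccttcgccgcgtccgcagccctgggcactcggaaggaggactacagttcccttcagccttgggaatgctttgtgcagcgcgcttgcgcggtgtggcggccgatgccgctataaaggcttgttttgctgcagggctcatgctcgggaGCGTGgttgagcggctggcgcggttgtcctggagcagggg
ABCG2: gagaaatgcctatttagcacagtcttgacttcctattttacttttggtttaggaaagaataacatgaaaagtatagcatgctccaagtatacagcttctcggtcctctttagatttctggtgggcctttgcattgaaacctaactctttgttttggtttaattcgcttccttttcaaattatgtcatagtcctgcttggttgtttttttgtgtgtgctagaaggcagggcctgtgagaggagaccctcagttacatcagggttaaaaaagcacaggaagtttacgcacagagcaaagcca
ABCB6: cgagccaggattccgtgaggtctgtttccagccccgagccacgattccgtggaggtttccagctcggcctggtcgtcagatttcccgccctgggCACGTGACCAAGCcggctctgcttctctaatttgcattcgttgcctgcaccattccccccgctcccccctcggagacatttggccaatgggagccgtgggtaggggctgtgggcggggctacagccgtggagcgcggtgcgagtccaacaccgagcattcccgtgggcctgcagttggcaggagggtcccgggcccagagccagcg
The ABCA3 window holds 3 matches to GCGTG and 1 to TGACNNNGC, with 1 overlapping pair. ABCA5 holds 1 of each, ABCB10 holds 2 matches to GCGTG and ABCC5 holds 1, while the ABCG2 window holds 0 matches to any of the 3. ABCB6 holds 1 match to TGACNNNGC that overlaps 1 match to CACGTG. Among all 35116 promoters of this length, 36.5% hold GCGTG, 13.3% hold TGACNNNGC and 7.26% hold CACGTG. Of the 9 promoters of genes called in any comparison, 6 hold GCGTG, 4 hold TGACNNNGC and 1 holds CACGTG. Among the 17 promoters of all tested ABC genes, called or not, these numbers are 9, 6 and 1. By direction in fPS 100 against control, GCGTG is in 4 of 5 promoters of genes that rose and 1 of 3 that fell. TGACNNNGC is in 2 of 5 and 2 of 3. A match describes the letters of the window only.

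Of the 42 genes, 23 passed the filter on low counts, each with at least 14 counts in every library, and were tested among 14637 genes. In fPS 100 against control, 11 of the 23 changed, 8 of them higher and 3 lower. This is 47.8% of the tested ABC genes, beside 30.0% of all genes tested; 34.8% were higher beside 15.2%, and 13.0% lower beside 14.8%. The genes that rose included ABCC3, ABCA3, ABCG1, ABCA5, ABCC5, ABCG2 and ABCB10, and those that fell were ABCB6, ABCB8 and ABCA2. The median log2 fold change of the 23 was 0.20, beside 0.01 over all genes tested. The libraries of fPS 100 and control did not overlap in 12 of the 23 (beside 41.4% of all genes tested), 9 of them higher (beside 20.6%) and 3 lower (beside 20.8%). In bulk RNA, fewer cells of a type and less RNA per cell cannot be told apart.

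In fPS 25 against control, 4 of the 23 changed (17.4%, beside 5.25% of all genes tested), with ABCA3 and ABCB10 higher (beside 3.0%) and ABCA7 and ABCB6 lower (beside 2.25%). The libraries of fPS 25 and control did not overlap in 14 genes (beside 33.5%), 10 higher (beside 16.4%) and 4 lower (beside 17.1%). In fPS 100 against fPS 25, 3 changed (13.0%, beside 13.7% of all genes tested), a share near that of all genes. ABCC3, ABCA5 and ABCA7 were higher (beside 6.31%) and none was lower (beside 7.43%); edgeR, DESeq2 and limma-voom each gave 0 lower, and 3 genes were lower at an unadjusted p under 0.05 in edgeR. The libraries of fPS 100 and fPS 25 did not overlap in 10 genes (beside 35.1%), 6 higher (beside 17.6%) and 4 lower (beside 17.5%). The median log2 fold change of the 23 was 0.14 in fPS 25 against control (beside -0.01 over all genes tested) and 0.06 in fPS 100 against fPS 25 (beside 0.02). Both fPS groups were set against the same control libraries, so the comparisons with control are not independent. Across any difference among the 3 groups, 10 of the 23 were called, beside 27.7% of all genes tested. The plot of fold changes by comparison shows the genes in the order of fPS 100 against control.

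**Figure D1:**
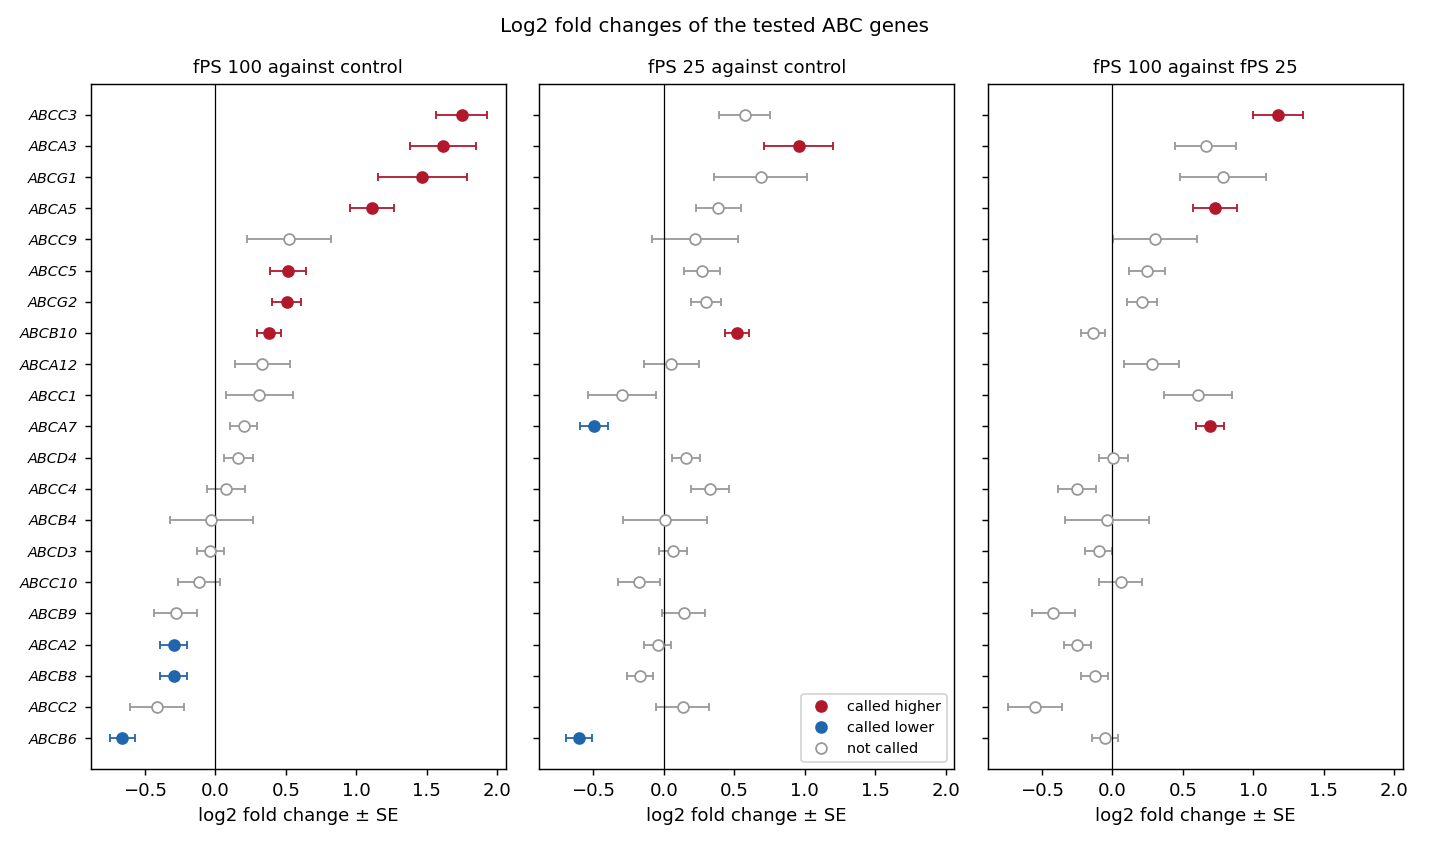
Log2 fold change ± SE (horizontal axis) of 21 tested ABC genes in the 3 pairwise comparisons, from edgeR with n = 3 libraries per group. Filled points are genes called at an adjusted p under 0.05, red for higher and blue for lower: 7 and 3 of those shown in fPS 100 against control, 2 and 2 in fPS 25 against control, and 3 and 0 in fPS 100 against fPS 25.

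The clearest change among the exporters of conjugated metabolites was in ABCC3 (MRP3; chr17:50634881-50692253), which carries glucuronides and other organic anions out of the cell across the basolateral membrane. Its level was 32.5, 27.3 and 28.9 CPM in control, 41.2, 46.5 and 44.0 CPM in fPS 25 and 100.2, 69.9 and 128 CPM in fPS 100. The 3 groups did not overlap, and the fPS 100 libraries were the most spread. ABCC3 rose in fPS 100 against control by 1.75 ± 0.18 (log2, SE; 3.36-fold, adjusted p = 5.4e-05) and in fPS 100 against fPS 25 by 1.18 ± 0.18 (2.26-fold, adjusted p = 0.00128). In fPS 25 against control the log2 fold change was 0.57 ± 0.18 (1.49-fold, adjusted p = 0.0932), which passed without fPS 100 replicate 2 or 3 (adjusted p = 0.0257 and 0.0156), and also with DESeq2 (0.0316), with no filter on low counts (0.000139) and with the fPS 100 libraries outside the fit (0.00644). Without fPS 100 replicate 3, the library with the highest value, ABCC3 in fPS 100 against control was at 1.53 (adjusted p = 2.41e-05).

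The share of ABCC3 in the family total was higher at each dose. The summed level of the 42 genes was 697.9, 683.3 and 719 CPM in control, 730.0, 718.1 and 698.9 CPM in fPS 25 and 829.8, 750.8 and 782.4 CPM in fPS 100. ABCC3 made up 3.99% to 4.65% of that sum in control, 5.64% to 6.48% in fPS 25 and 9.31% to 16.3% in fPS 100.

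ABCC5 (MRP5; chr3:183919934-184017884), an exporter of cyclic nucleotides, was at 72.1, 58.1 and 82.7 CPM in control, 85.6, 90.1 and 81.1 CPM in fPS 25 and 114, 94.4 and 96.5 CPM in fPS 100. All 3 fPS 100 libraries lay above all control libraries, while fPS 25 and control overlapped. ABCC5 rose in fPS 100 against control by 0.52 ± 0.13 (log2; 1.43-fold, adjusted p = 0.0100). It stood at 0.27 ± 0.13 in fPS 25 against control (adjusted p = 0.255) and in fPS 100 against fPS 25 at 0.25 ± 0.13 (adjusted p = 0.228). ABCG2 (BCRP; chr4:88090264-88231626), a plasma membrane pump for drugs, urate and porphyrins, had 35.0, 35.6 and 37.2 CPM in control, 43.5, 41.9 and 47.0 CPM in fPS 25 and 56.9, 52.4 and 43.7 CPM in fPS 100. Each fPS group lay above control, and fPS 100 replicate 3 fell within the fPS 25 range. ABCG2 rose by 0.51 ± 0.11 (log2; 1.42-fold, adjusted p = 0.00425) in fPS 100 against control. Its log2 fold changes of 0.30 ± 0.11 in fPS 25 against control (adjusted p = 0.136) and 0.21 ± 0.11 in fPS 100 against fPS 25 (adjusted p = 0.221) did not pass, and both passed without fPS 100 replicate 3 (adjusted p = 0.0257 and 0.0255); fPS 25 against control also passed with only its own groups in the fit (0.0397).

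The other tested members of subfamily C were not called. ABCC1 (MRP1), the exporter of glutathione conjugates and leukotriene C4, had 7.95, 7.20 and 7.63 CPM in control, 6.37, 6.15 and 6.04 CPM in fPS 25 and 7.59, 6.58 and 14.1 CPM in fPS 100. The value of replicate 3 in fPS 100 stood above all other libraries. In fPS 100 against control its log2 fold change was 0.31 ± 0.24 (adjusted p = 0.347), and -0.10 without that library. It was 0.61 ± 0.24 in fPS 100 against fPS 25 (adjusted p = 0.121), which passed with no filter on low counts (0.0148). Without fPS 100 replicate 3, and with the filter, it was 0.20 there (adjusted p = 0.318). ABCC1 stands on 2 rows of the count table, the first of which held 27.3% to 46.9% of its counts, and how reads were shared between such rows is not given in the sources used here, so its level is uncertain. ABCC2 (MRP2), the apical exporter of conjugates in liver, had a log2 fold change of -0.42 ± 0.19 in fPS 100 against control (adjusted p = 0.122), ABCC4 (MRP4), which exports cyclic nucleotides and prostaglandins, 0.08 ± 0.13 (adjusted p = 0.707) and ABCC10 (MRP7) -0.12 ± 0.15 (adjusted p = 0.591). ABCC9, the SUR2 subunit of ATP-sensitive potassium channels, was at 0.52 ± 0.30 (adjusted p = 0.210) in fPS 100 against control, and at 0.80 (adjusted p = 0.0171) without fPS 100 replicate 3.

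**Figure D2:**
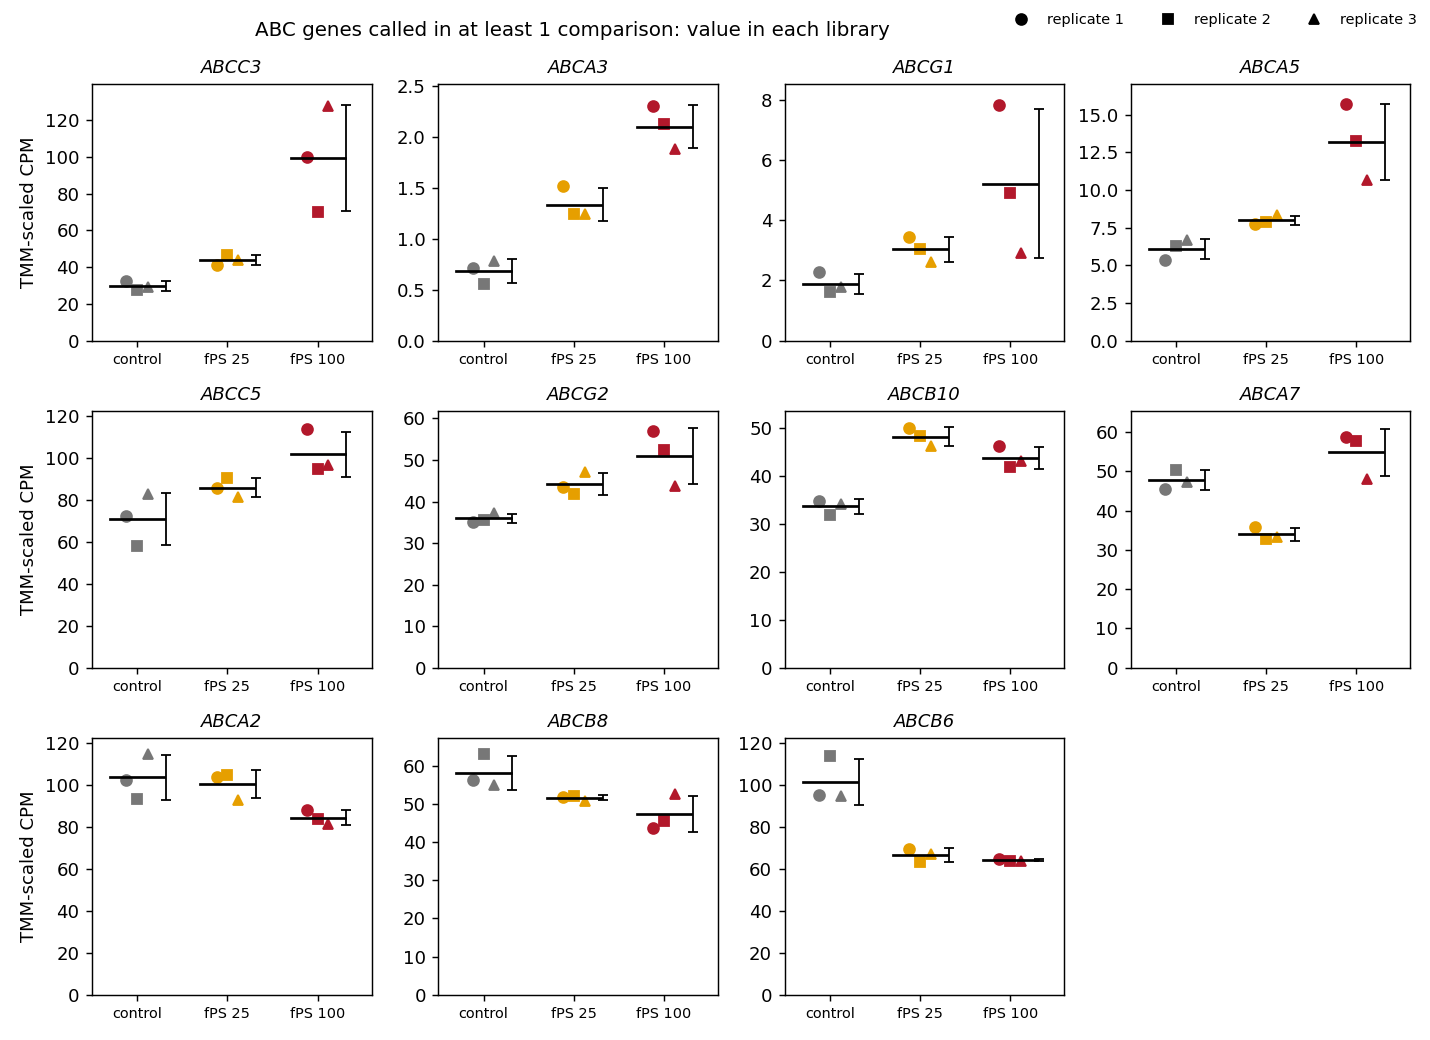
TMM-scaled CPM (vertical axis, from 0) of 11 ABC genes called in at least 1 comparison, in control, fPS 25 and fPS 100. Points are single libraries, the line is the mean and the bracket ± SD (n = 3). In 9 of the 11 panels the fPS 25 mean lies between the control and fPS 100 means, the exceptions being ABCB10 and ABCA7. All panels are of called genes, and the share with this order among all genes tested was not counted.

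Among the lipid transporters, ABCA3 (chr16:2275881-2340728), which loads surfactant lipids into the lamellar bodies of lung alveolar cells, was higher in both fPS groups. It was a low gene, with 16, 14 and 19 counts in control, 26, 30 and 29 counts in fPS 25 and 57, 51 and 49 counts in fPS 100, or 0.682 ± 0.119, 1.33 ± 0.161 and 2.10 ± 0.214 CPM (mean ± SD). The 3 groups did not overlap, in the order of the dose. ABCA3 rose in fPS 100 against control by 1.62 ± 0.23 (log2; 3.07-fold, adjusted p = 0.000465). At the lower dose, against control, it rose by 0.96 ± 0.24 (log2; 1.94-fold, adjusted p = 0.0474). That call at the lower dose was lost without control replicate 1, 2 or 3 (adjusted p = 0.112, 0.172 and 0.0601), fPS 25 replicate 1, 2 or 3 (0.176, 0.136 and 0.116) or fPS 100 replicate 1 or 2 (0.0618 and 0.0706), and with DESeq2 (0.0651), limma-voom (0.0629), no filter on low counts (0.0758), upper-quartile scaling (0.0539) and the authors' log2 values (0.166). The call was also lost with a replicate block (adjusted p = 0.101). In fPS 100 against fPS 25 the log2 fold change of ABCA3 was 0.66 ± 0.22 (adjusted p = 0.0690), and 0.74 (adjusted p = 0.0408) without fPS 100 replicate 3.

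ABCA5 (chr17:69244311-69327133), a transporter of lysosomes and late endosomes, was at 5.38, 6.26 and 6.68 CPM in control, 7.78, 7.85 and 8.32 CPM in fPS 25 and 15.7, 13.3 and 10.6 CPM in fPS 100. Here too the groups did not overlap. ABCA5 rose by 1.11 ± 0.16 (log2; 2.16-fold, adjusted p = 0.000405) in fPS 100 against control and by 0.73 ± 0.16 (1.65-fold, adjusted p = 0.00996) in fPS 100 against fPS 25. The second of these calls was lost without fPS 25 replicate 2 (adjusted p = 0.0507). Set against control, fPS 25 had ABCA5 at 0.39 ± 0.16 (adjusted p = 0.197). It lies in a cluster of 5 ABCA genes on chromosome 17 with ABCA6, ABCA8, ABCA9 and ABCA10, and was the only one of them to pass the filter; ABCA10, whose annotated interval overlaps that of ABCA5, had 2 to 14 counts per library.

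ABCG1 (chr21:42199689-42297244), which passes cellular cholesterol to high-density lipoprotein, had 2.27, 1.61 and 1.77 CPM in control, 3.45, 3.06 and 2.61 CPM in fPS 25 and 7.83, 4.91 and 2.91 CPM in fPS 100. Every fPS library lay above every control library, but the fPS 100 libraries were widely spread and the lowest fell within the fPS 25 range. ABCG1 rose by 1.47 ± 0.32 (log2; 2.77-fold, adjusted p = 0.00508) in fPS 100 against control. Its log2 fold change was 0.69 ± 0.33 in fPS 25 against control (adjusted p = 0.264) and 0.78 ± 0.31 in fPS 100 against fPS 25 (adjusted p = 0.117). The last of these was 1.08 (adjusted p = 0.0076) without fPS 100 replicate 3, and passed with no filter on low counts (0.0129), but was 0.37 (adjusted p = 0.405) without fPS 100 replicate 1, the library with the highest value. ABCA1, the partner of ABCG1 in cholesterol export that delivers lipid to apolipoprotein A-I, did not pass the filter, with 2, 2 and 6 counts in control, 8, 5 and 5 counts in fPS 25 and 9, 6 and 9 counts in fPS 100.

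ABCA7 (chr19:1040107-1065572), a phospholipid transporter and an Alzheimer's disease risk gene, did not follow the dose. Its level was 45.5, 50.5 and 47.4 CPM in control, 35.8, 32.7 and 33.3 CPM in fPS 25 and 58.9, 57.8 and 48.0 CPM in fPS 100. The fPS 25 libraries lay below all others, and fPS 100 and control overlapped. ABCA7 fell in fPS 25 against control, with a log2 fold change of -0.49 ± 0.10 (0.710-fold, adjusted p = 0.0180), and was higher in fPS 100 against fPS 25 at 0.69 ± 0.10 (1.62-fold, adjusted p = 0.000936). The fall was lost without control replicate 2 (adjusted p = 0.0738) or fPS 25 replicate 1, 2 or 3 (0.0607, 0.102 and 0.0826), and with a replicate block (0.0526). In fPS 100 against control the log2 fold change was 0.20 ± 0.10 (adjusted p = 0.147), and 0.29 (adjusted p = 0.0152) without fPS 100 replicate 3.

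ABCA2 (chr9:137007234-137028922), an endosomal and lysosomal lipid transporter, was at 103, 93.4 and 115 CPM in control, 104, 105 and 93.1 CPM in fPS 25 and 88.1, 84.1 and 81.3 CPM in fPS 100. The fPS 100 libraries lay below all others, and fPS 25 overlapped control. ABCA2 fell in fPS 100 against control with a log2 fold change of -0.29 ± 0.10 (0.815-fold, adjusted p = 0.0371). The call held in 9 of 21 alternatives. It was lost without control replicate 1 or 3 (adjusted p = 0.0907 and 0.113), fPS 25 replicate 1 or 2 (0.0625 and 0.0595) or fPS 100 replicate 1, 2 or 3 (0.0561, 0.0924 and 0.0527). The same held with no filter (0.0824), upper-quartile scaling (0.0518), only the compared groups (0.0853), a replicate block (0.0832) or the authors' log2 values (0.0888). The keratinocyte lipid transporter ABCA12 had 5.999, 5.16 and 8.45 CPM in control, 5.90, 7.80 and 6.56 CPM in fPS 25 and 9.45, 7.24 and 8.0 CPM in fPS 100. Its groups overlapped, and its log2 fold change of 0.33 ± 0.19 in fPS 100 against control did not pass (adjusted p = 0.221).

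The mitochondrial members of subfamily B moved in different directions. ABCB6 (chr2:219209772-219218958), a porphyrin transporter of the outer mitochondrial membrane and of lysosomes, had 95.2, 114 and 95.004 CPM in control, 69.6, 63.3 and 67.1 CPM in fPS 25 and 64.9, 63.8 and 64.0 CPM in fPS 100. Both fPS groups lay below control and overlapped each other. ABCB6 fell in fPS 100 against control by 0.66 on the log2 scale (SE 0.09; 0.633-fold, adjusted p = 0.000379) and in fPS 25 against control by 0.61 (SE 0.09; 0.657-fold, adjusted p = 0.00471). Between the doses, fPS 100 against fPS 25, the log2 fold change was -0.05 ± 0.09 (adjusted p = 0.754).

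ABCB10 (chr1:229516582-229558707), a transporter of the inner mitochondrial membrane linked to haem synthesis, was at 34.8, 31.8 and 34.2 CPM in control, 49.98, 48.4 and 46.2 CPM in fPS 25 and 46.2, 41.8 and 43.1 CPM in fPS 100. It lay above control in all 6 fPS libraries. ABCB10 rose in fPS 100 against control by 0.38 ± 0.08 (log2; 1.30-fold, adjusted p = 0.00633) and in fPS 25 against control by 0.52 ± 0.09 (1.43-fold, adjusted p = 0.00773), the second lost without fPS 25 replicate 2 (adjusted p = 0.0511).

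ABCB8 (chr7:151028450-151047782), a part of the mitochondrial potassium channel and a protein of iron export, was at 56.3, 63.0 and 54.8 CPM in control, 51.9, 52.0 and 50.8 CPM in fPS 25 and 43.6, 45.6 and 52.7 CPM in fPS 100. The fPS 100 libraries lay below all control libraries. ABCB8 fell by 0.30 on the log2 scale in fPS 100 against control (SE 0.09; 0.815-fold, adjusted p = 0.0359). The call was lost without control replicate 1 or 2 (adjusted p = 0.0746 and 0.118), fPS 25 replicate 1, 2 or 3 (0.0629, 0.0605 and 0.0577) or fPS 100 replicate 1 or 2 (0.134 and 0.111). The same held with no filter (0.0981), only the compared groups (0.0987), a replicate block (0.0771) or the authors' log2 values (0.0527).

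Other members were tested and not called in any comparison. ABCB9, a lysosomal peptide transporter, had a log2 fold change of -0.28 ± 0.15 in fPS 100 against control (adjusted p = 0.191), and ABCB4, which moves phosphatidylcholine into bile, -0.03 ± 0.29 at 0.919 to 2.08 CPM. In subfamily D, the fPS 100 against control values were -0.04 ± 0.10 for ABCD3 (PMP70), the peroxisomal carrier of branched-chain acyl-CoA, and 0.16 ± 0.10 for ABCD4, which acts in lysosomal cobalamin release. Neither passed (adjusted p = 0.817 and 0.242).

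The 19 genes that did not pass the filter never exceeded 14 counts or 0.551 CPM in a library, and 11 of them never exceeded 3 counts. Beside ABCA1, they included the ABCA genes ABCA4, ABCA6, ABCA8, ABCA9, ABCA10 and ABCA13, the drug pump ABCB1 (P-glycoprotein), the bile salt pump ABCB11, ABCB5, the peroxisomal ABCD2 and the sterol transporters ABCG4, ABCG5 and ABCG8. From subfamily C they were ABCC6, whose loss causes pseudoxanthoma elasticum, ABCC8, the SUR1 channel subunit, ABCC11, the earwax-type gene, ABCC12 and ABCC13, a pseudogene in RefSeq. ABCB1 had 1 count over all 9 libraries. A count of 0 allows up to 3 counts, or 0.102 to 0.183 CPM by library. With no filter on low counts, 0 of the 19 were called by edgeR's quasi-likelihood test in any pairwise comparison, the lowest adjusted p being 0.105 in fPS 100 against control; ABCA1 was at a log2 fold change of 1.19 (adjusted p = 0.269) and ABCC11 at -1.71 (adjusted p = 0.143) there.

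Levels between genes were compared on the length- and depth-scaled log2 values that the authors deposited. In control, ABCB6 was the highest of the 23 tested genes at 4.88 ± 0.127 (SD, n = 3), with ABCD3 next at 4.34, and ABCA3 the lowest at 0.12. Further down, ABCC5, ABCA2 and ABCB8, at 3.53, 3.52 and 3.50, did not differ beyond their spread. Of the 22 pairs of neighbours in the control order, 12 overlapped in their libraries. ABCC3 was 11th at 2.67 ± 0.12 in control, 10th in fPS 25 and 3rd at 4.17 ± 0.42 in fPS 100. There ABCD3 was first at 4.35 and ABCB6 second. The fPS 100 libraries of ABCC3, at 4.215, 3.726 and 4.554, spanned those of ABCD3, ABCB6 and ABCC5, so the order of these genes is not resolved. The plot of length-scaled levels shows this order.

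**Figure D3:**
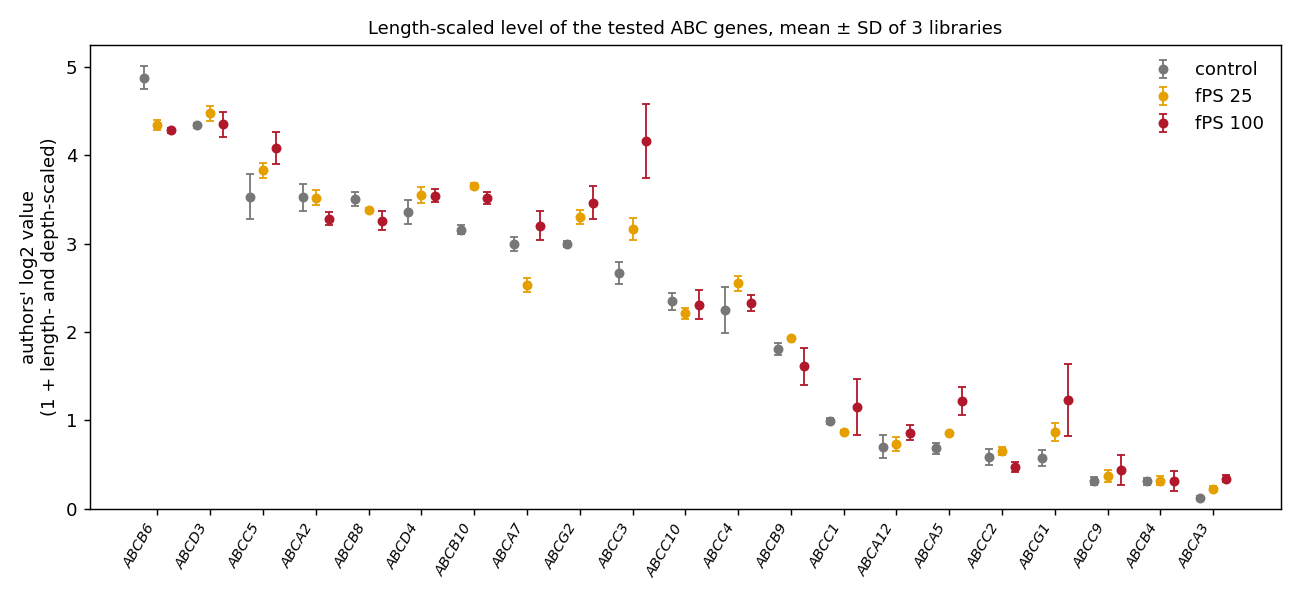
Length- and depth-scaled log2 level as deposited by the authors (vertical axis) of 21 tested ABC genes, sorted by the control mean; points are means and bars ± SD of 3 libraries in control, fPS 25 and fPS 100. ABCB6 is highest in control, and ABCC3 is at 2.67 in control and 4.17 in fPS 100.

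The libraries of fPS 100 did not contribute equally. Among the 23 tested ABC genes, replicate 3 of fPS 100 held the highest of the 3 values in 17.4%, beside 40.1% of all genes tested, and the lowest in 56.5%, beside 44.2%. Without this library, 12 ABC genes were called in fPS 100 against control, 10 higher and 2 lower, 7 in fPS 25 against control and 6 in fPS 100 against fPS 25. The calls over all genes also rose without it, to 37.9%, 13.0% and 18.1% of the genes tested in these comparisons. ABCA7 and ABCC9 were then called in fPS 100 against control, and ABCA2 was not. In fPS 25 against control, where 4 were called, the number was 2 without control replicate 2, fPS 25 replicate 1 or fPS 25 replicate 3, and 1 without fPS 25 replicate 2, where 1.68%, 1.48%, 1.5% and 0.902% of all genes were called. The map of single libraries shows ABCG1, ABCA5, ABCA3 and ABCC9 lowest, and ABCC3 and ABCC1 highest, in that library within its group.

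**Figure D4:**
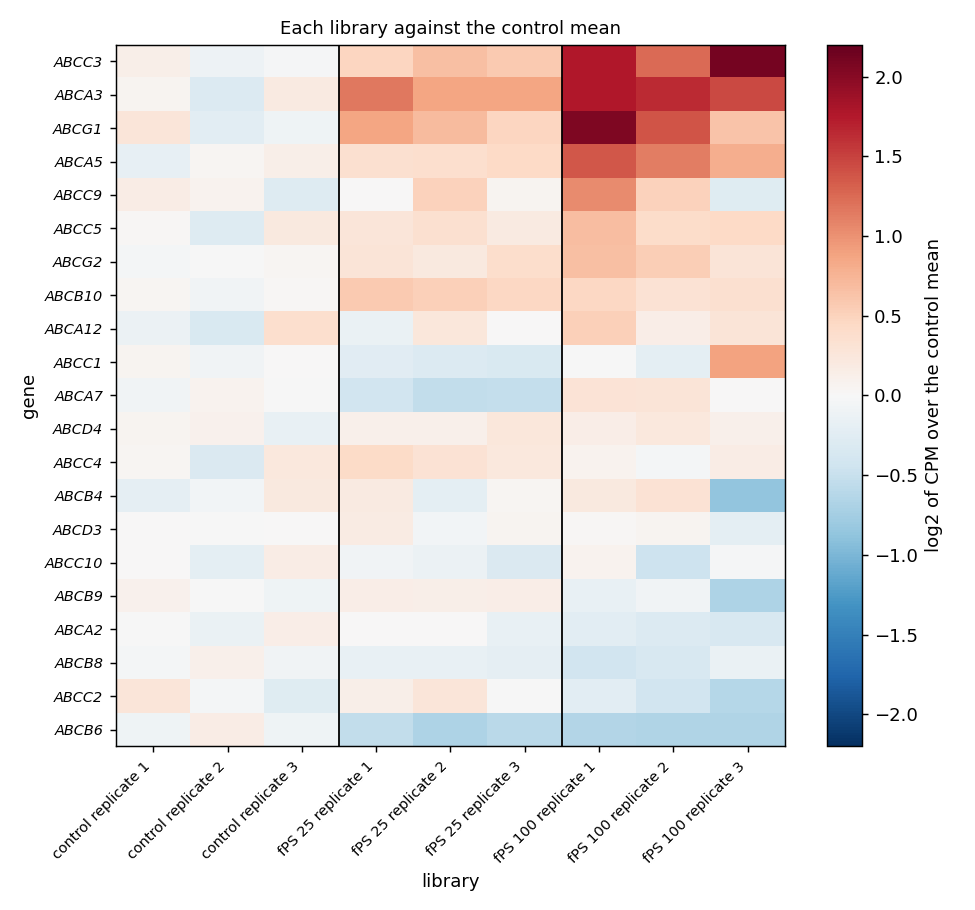
Log2 of the CPM of each library over the control mean (colour) for 21 tested ABC genes (vertical axis) in the 9 libraries (horizontal axis), sorted by fold change in fPS 100 against control. ABCC3, ABCA3, ABCG1 and ABCA5 are above the control mean in all 6 fPS libraries, and ABCB6 is below it in all 6.

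Genes that work beside the transporters were counted from lists by pathway, all in fPS 100 against control. Of the conjugation and glutathione genes that supply substrates to the ABCC pumps, 14 of 20 were tested and 5 rose with 0 lower (median log2 fold change 0.40, beside 0.01 over all genes). These included NQO1, a quinone reductase, at 1.20 ± 0.11 (adjusted p = 2.37e-05), EPHX1, an epoxide hydrolase, at 0.87 (adjusted p = 0.000213), and GCLC, which makes the glutathione precursor, at 0.70 ± 0.11 (adjusted p = 0.000782). Of the xenobiotic sensors, 1 of 9 tested rose and 0 fell (median -0.01). This was NFE2L2, which encodes NRF2, at 0.31 ± 0.07 (adjusted p = 0.00844), while AHR, named for the motif above with its value known, was at -0.06 ± 0.09 (adjusted p = 0.652). Of the solute carriers of drugs and nucleosides, 2 rose and 1 fell of 13 tested (median 0.15). SLC29A1, the nucleoside carrier ENT1, fell with a log2 fold change of -1.24 ± 0.13 (adjusted p = 7.54e-05), and SLCO1B3, an organic anion uptake carrier, rose by 0.53 ± 0.11 (adjusted p = 0.00351). The shares called were 35.7% of the conjugation genes, 11.1% of the sensors and 23.1% of the carriers, beside 30.0% of all genes tested.

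Of the sterol genes around ABCA1 and ABCG1, 3 rose and 2 fell of 16 tested (median -0.02). MYLIP, which targets the LDL receptor for degradation, rose by 0.89 ± 0.17 (adjusted p = 0.00222) and LCAT, which esterifies plasma cholesterol, by 0.83 ± 0.21 (adjusted p = 0.0125), while PLTP, a phospholipid transfer protein, fell with a log2 fold change of -0.41 (adjusted p = 0.0121). Of the acylceramide and sphingolipid genes around ABCA12, 4 rose and 0 fell of 16 tested (median 0.07), among them ELOVL4, which elongates very long fatty acids, at 0.67 ± 0.10 (adjusted p = 0.00045). The peroxisomal genes around ABCD3 gave 4 higher and 1 lower of 21 (median 0.04), with PEX13, a part of the peroxisomal import channel, at 1.04 ± 0.08 (adjusted p = 1.42e-05). The shares called were 31.2% of the sterol, 25.0% of the acylceramide and 23.8% of the peroxisomal genes, near or below the 30.0% of all genes tested.

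Of the mitochondrial iron-sulfur and haem genes around ABCB6, ABCB8 and ABCB10, 1 rose and 1 fell of 23 tested (8.7%, beside 30.0% of all genes; median -0.05). CPOX, an enzyme of haem synthesis, rose by 0.33 ± 0.09 (adjusted p = 0.0188) and HSPA9, a mitochondrial chaperone, fell with a log2 fold change of -0.48 ± 0.09 (adjusted p = 0.00288). In fPS 25 against control these lists gave 2 higher among the conjugation genes and 1 higher each among the sterol, peroxisomal and mitochondrial genes, with 0 lower, beside 5.25% of all genes called; MYLIP was then at 0.80 (adjusted p = 0.0210) and CPOX at 0.37 (adjusted p = 0.0445). Neither channel partner of the SUR subunits, KCNJ8 and KCNJ11, passed the filter. Of the ABC genes that the symbol rule left out, 3 of 7 were tested. Called among these in fPS 100 against control was ABCF3 alone (33.3%, beside 30.0% of all genes), a soluble protein of translation and no transporter. It fell with a log2 fold change of -0.42 ± 0.14 (adjusted p = 0.0433). Its groups overlapped, with fPS 100 replicate 3 at 120 CPM and control replicate 3 at 117 CPM.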

How the data were processed

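RNA of HaCaT cells was sequenced after poly(A) selection, per the labels. The submitters' processing notes name bcl2fastq and GRCh38.p14. Which aligner, counter, annotation release and strandedness were used is not given in the sources used here. As deposited, the series table gives raw read counts per gene row. The authors' table of each library gives log2 values of 1 plus a length- and depth-scaled value. Rows of a symbol were summed, and no column was left unused (0 of them).

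The filter was filterByExpr with min.count 10 and min.total.count 15 (edgeR 4.0.16, R 4.3.3). All 9 libraries were scaled by TMM and fitted together by group with edgeR's robust quasi-likelihood test, 2-sided, with Benjamini-Hochberg adjustment over all 14637 genes, and calls needed an adjusted p under 0.05. CPM are TMM-scaled, SE is that of the log2 fold change, and n = 3 per group. The biological coefficient of variation was 13.6%. The steps were tested on simulated data. There the false share of calls was above the 0.05 threshold in fPS 100 against control and in fPS 100 against fPS 25. Many 1.5-fold changes were missed in every comparison. Replicate numbers did not pair the libraries: 0 of 9 same-number correlations were above 0.1 (-0.39 to 0.03).

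Genes called in any pairwise comparison are given by library, others by fold change or count range, and up to 3 genes of smallest adjusted p are named per pathway list. Values of 2 tested genes are not reported here, though the counts include them. The members and lists were chosen with earlier results of these data known. Alternatives were other scalings (RLE, upper quartile), filters (none, 1 CPM), DESeq2 1.42.0, limma-voom 3.58.1, the authors' log2 values with limma, a fit without the robust option, only the compared groups, the largest row of a symbol, no rRNA genes, a replicate block, and leaving out each library. Floors for counts of 0 cover counting error only.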

Additional observations from a re-analysis of the deposited data

How the results depend on the processing

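Of the calls in fPS 100 against control, those of ABCA3, ABCA5, ABCB10, ABCB6, ABCC3, ABCC5, ABCG1 and ABCG2 held in all 21 alternatives, and those of ABCA2 and ABCB8 in 9 and 10. The number of ABC genes called lower there, 3, was 1 with no filter, with only the compared groups and with the authors' log2 values; the cause was not tested. In fPS 25 against control, 4 were called, 2 higher and 2 lower. With only the compared groups, which leaves out the fPS 100 libraries, these were 7 called and 5 higher, beside 10.6% of all genes called, against 5.25% with all libraries, and 1 was higher with upper-quartile scaling, limma-voom or the authors' log2 values. In fPS 100 against fPS 25, 3 were called, all higher, and 5 with no filter, all higher. The replicate block, whose numbers do not pair the libraries, gave 8 called with 1 lower in fPS 100 against control, 2 called with 1 higher and 1 lower in fPS 25 against control, and 3 in fPS 100 against fPS 25. Leaving out single libraries gave 8 to 12 called (7 to 10 higher, 1 to 2 lower) in fPS 100 against control, 1 to 7 (0 to 5 higher, 1 to 2 lower) in fPS 25 against control and 2 to 6, all higher, in fPS 100 against fPS 25. Over all genes, the share called moved too, 21.7% to 37.9%, 0.902% to 13.0% and 6.80% to 18.1% in these comparisons. For any difference among the groups, where 10 were called, it gave 7 to 12. Signs turned only for values that were not called. ABCA2 in fPS 25 against control ran from -0.10 to 0.0379, at 0.0379 without control replicate 3 and 0.01 without fPS 25 replicate 3. The authors' log2 values gave smaller changes for low genes, 0.22 for ABCA3 and 0.66 for ABCG1 in fPS 100 against control, since 1 is added before the log. The 19 genes under the filter had too few counts for the main fit, and the part of depth in this was not tested. Of these, ABCB11 and ABCC6 stand on 2 rows of the count table, and the part of such rows in their low counts was not tested.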

Other observations

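Several ABC genes outside the symbol rule stand on many rows of the count table and hold almost no counts. TAP1 and TAP2, the peptide transporters of antigen presentation, stand on 8 rows each with 0 and 3 counts over all 9 libraries, and ABCF1 on 7 rows with 0. ABCE1, ABCF2 and ABCF3, which act in ribosome recycling or translation, held 27782, 17612 and 22545 counts. Among protein-coding symbols on 2 or more rows, 431 of 955 (45.1%) had no count in any library, against 1769 of 17426 (10.2%) on 1 row. The cause of this difference was not tested. Of the 42 genes, ABCB11, ABCC1 and ABCC6 stand on 2 rows.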
